A study of Homo sapiens with 6 samples.

Results

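The genes described here make, sense, move and clear bile acids and drugs: bile acid synthesis enzymes, their nuclear receptors, the FGF19 feedback axis, uptake and efflux transporters, cytochrome P450 enzymes (CYPs) and conjugating enzymes. The list holds 47 genes, and members were taken as the probes whose symbol in the platform's annotation is on it. A probe with that symbol alone was present for 43 of the 47, as 60 probes among 47323 on the array, out of 20046 genes with a named probe. The bile acid receptor NR1H4 (FXR), the drug receptor NR1I2 (PXR) and the exporters ABCC1 and ABCC6 had no such probe and were not analysed here. RNA came from cells labelled Huh7, an established line from a human hepatocellular carcinoma. The cells had received sorafenib, a multikinase inhibitor used against liver cancer, for 24 h (3 samples), or only its solvent DMSO (3 samples). The dose stands as 3 mM in the labels, a unit that could not be checked here. The labels name no other agent, and nothing in them ties the 3 samples of a group to separate cultures. The p-values below therefore reflect sample-to-sample spread that could be technical.

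The measurements exist as 2 sets, probe signals with detection p-values (the signal arrays) and a normalized value table, which did not hold the same arrays. A sample's own columns in the sets had a Spearman correlation of 0.848 to 0.863 across probes, and columns of different samples in the sets had 0.846 to 0.863, against 0.925 to 0.942 within the signal arrays and 0.923 to 0.939 within the value table. Which set came from the labelled cells was not settled, so each gene is given in each set separately, and no test was made across them. Median signals of the 6 signal arrays ran from 120.2 to 144.5, and 16476 to 17476 probes were detected on an array. All 14 hepatocyte markers, albumin and AFP among them, were above the limit in both sets, as were 4 of 6 bile duct markers. Of 12 stromal, endothelial and immune markers, 3 were kept on the signal arrays (ACTA2, CD68 and PDGFRB) and 2 in the value table (CD68 and PECAM1), and on the signal arrays 9 were detected on no array, COL1A1, PTPRC, VWF and CDH5 among them. The summed linear level of these 12 markers was 12750 to 14760 with sorafenib and 9145 to 9474 with DMSO on the signal arrays, and 3084 to 3140 with sorafenib and 3196 to 3507 with DMSO in the value table. These sums include the markers below the limit. On the signal arrays ACTA2 had a mean log2 level of 13.59 with sorafenib and 12.94 with DMSO. CD68 had 10.06 and 10.05 in that order, and PDGFRB, detected on no sorafenib array, had 5.24 and 6.40. The part of these 12 markers in the results below was not tested.

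Hepatocytes turn cholesterol into bile acids, by a classic route that starts with CYP7A1 and an alternative route that starts with CYP27A1. Bile acids bind the receptor FXR, which induces the repressor SHP (NR0B2), the basolateral exporter formed by SLC51A and SLC51B, the canalicular pump ABCB11, and, in the intestine, the hormone FGF19. FGF19 acts on hepatocytes through FGFR4 and its coreceptor beta-klotho (KLB) to lower bile acid synthesis. The receptors PXR, CAR (NR1I3) and AHR induce CYPs, conjugating enzymes and transporters when drugs or other foreign compounds are present, and sorafenib is itself oxidised mainly by CYP3A4 and glucuronidated by UGT1A9.

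The nuclear receptors FXR, PXR and CAR bind repeats of a short core motif. The 250 bases before the start site are therefore shown for the partner subunits SLC51A and SLC51B, for the uptake carrier SLC22A7, the sulfotransferase SULT2A1 and the coreceptor KLB, and for CYP3A5, which rose in the value table, a choice made with their values known. The sequences are RefSeq's on GRCh38.p14, 5′ to 3′ on the gene's strand: SLC51A chr3:196216284-196216533 on the plus strand, SLC51B chr15:65045137-65045386 on the plus strand, SLC22A7 chr6:43298010-43298259 on the plus strand, SULT2A1 chr19:47886316-47886565 on the minus strand, KLB chr4:39406680-39406929 on the plus strand and CYP3A5 chr7:99679997-99680246 on the minus strand. Capitals mark the core motif AGGTCA or its variants, which are GGGTCA and, as a weaker form, AGTTCA, searched on both strands.
SLC51A: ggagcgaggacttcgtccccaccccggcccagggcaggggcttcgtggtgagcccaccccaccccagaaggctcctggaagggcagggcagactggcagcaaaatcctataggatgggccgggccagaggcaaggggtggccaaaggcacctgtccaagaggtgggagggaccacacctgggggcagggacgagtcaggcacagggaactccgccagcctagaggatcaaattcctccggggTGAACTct
SLC51B: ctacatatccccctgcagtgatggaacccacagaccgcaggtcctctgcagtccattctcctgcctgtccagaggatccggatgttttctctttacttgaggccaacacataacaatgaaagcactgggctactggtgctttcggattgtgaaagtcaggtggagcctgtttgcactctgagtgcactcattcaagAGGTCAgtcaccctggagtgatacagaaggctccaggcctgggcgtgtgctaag
SLC22A7: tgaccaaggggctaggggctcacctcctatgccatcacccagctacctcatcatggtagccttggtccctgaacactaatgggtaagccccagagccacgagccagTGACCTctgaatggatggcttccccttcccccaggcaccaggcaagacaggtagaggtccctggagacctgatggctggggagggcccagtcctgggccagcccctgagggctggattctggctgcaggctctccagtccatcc
SULT2A1: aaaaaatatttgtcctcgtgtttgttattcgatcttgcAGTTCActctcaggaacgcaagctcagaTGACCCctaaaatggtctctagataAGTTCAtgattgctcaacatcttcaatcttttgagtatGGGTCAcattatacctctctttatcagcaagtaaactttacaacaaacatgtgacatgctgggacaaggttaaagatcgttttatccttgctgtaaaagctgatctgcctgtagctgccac
KLB: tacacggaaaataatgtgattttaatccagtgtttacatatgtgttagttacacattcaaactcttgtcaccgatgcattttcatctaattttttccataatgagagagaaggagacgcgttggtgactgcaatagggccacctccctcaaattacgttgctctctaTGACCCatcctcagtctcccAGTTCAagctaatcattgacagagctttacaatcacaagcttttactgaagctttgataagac
CYP3A5: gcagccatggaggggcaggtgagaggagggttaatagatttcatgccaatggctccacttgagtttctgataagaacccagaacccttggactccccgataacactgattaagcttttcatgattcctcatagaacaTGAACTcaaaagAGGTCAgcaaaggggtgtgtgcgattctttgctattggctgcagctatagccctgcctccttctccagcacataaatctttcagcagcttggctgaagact
At least 1 of the motifs lay in each of these windows, for example AGGTCA at 54 to 49 bases before the SLC51B start site and AGTTCA on the opposite strand at 8 to 3 bases before that of SLC51A. SULT2A1 held 4 matches. In CYP3A5, AGTTCA on the opposite strand lies 6 bases before AGGTCA on the gene's strand, so that they span 113 to 96 bases before the start site. This everted pair with the same spacing stood in 3 of 35116 promoter windows of this length (0.00854%), those of CYP3A4, CYP3A5 and ITGB1BP2. Of all 35116 windows, 12.1% held AGGTCA, 12.1% held GGGTCA, 8.8% held AGTTCA and 29.1% held at least 1 of these. A match describes the letters of the window and shows no binding.

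Detection comes first. A probe was kept where its detection p was under 0.01 on at least 3 of the 6 signal arrays, or where its value was above a log2 level of 7.40 on at least 3 of the 6 columns of the value table. That level was taken from the signal arrays, so the limit in the value table is approximate. These filters kept 20 of the 43 genes on the signal arrays and 23 in the value table, 15 of them in both. Of all 20046 genes with a named probe, 10523 were kept on the signal arrays and 10595 in the value table, a similar share. CYP8B1, SLC27A5, NR0B2, SLC51A and UGT2B7 were kept on the signal arrays only. BAAT, FGF19, ABCB4, ABCG2, CYP1A1, CYP1B1, CYP2J2 and UGT1A1 were kept in the value table only. Above the limit on no array and no column were 10 genes: CYP7A1, the rate-limiting enzyme of the classic route; CYP7B1, an enzyme of the alternative route; the receptor NR1I3; the bile acid carrier SLC10A1 (NTCP) and the organic anion carrier SLCO1B3; the bile salt export pump ABCB11; the drug-oxidising CYP3A4 and CYP2E1; UGT2B15; and the acetyltransferase NAT2. A further 5 were above it on 1 or 2 arrays or columns of a set and were not tested. These were SLCO1B1 and UGT1A6 on 1 sorafenib and 1 DMSO column, CYP2C8 on 1 DMSO column, CYP2B6 on 1 sorafenib column and UGT2B4 on 1 DMSO signal array. The genes not kept had log2 levels of 4.52 to 6.07 over their 30 probes on the signal arrays and of 6.43 to 7.72 over their 27 probes in the value table, and no change is given for them. The signal arrays' detection limit lay at a log2 level of 5.99 to 6.19.

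**Figure D1:**
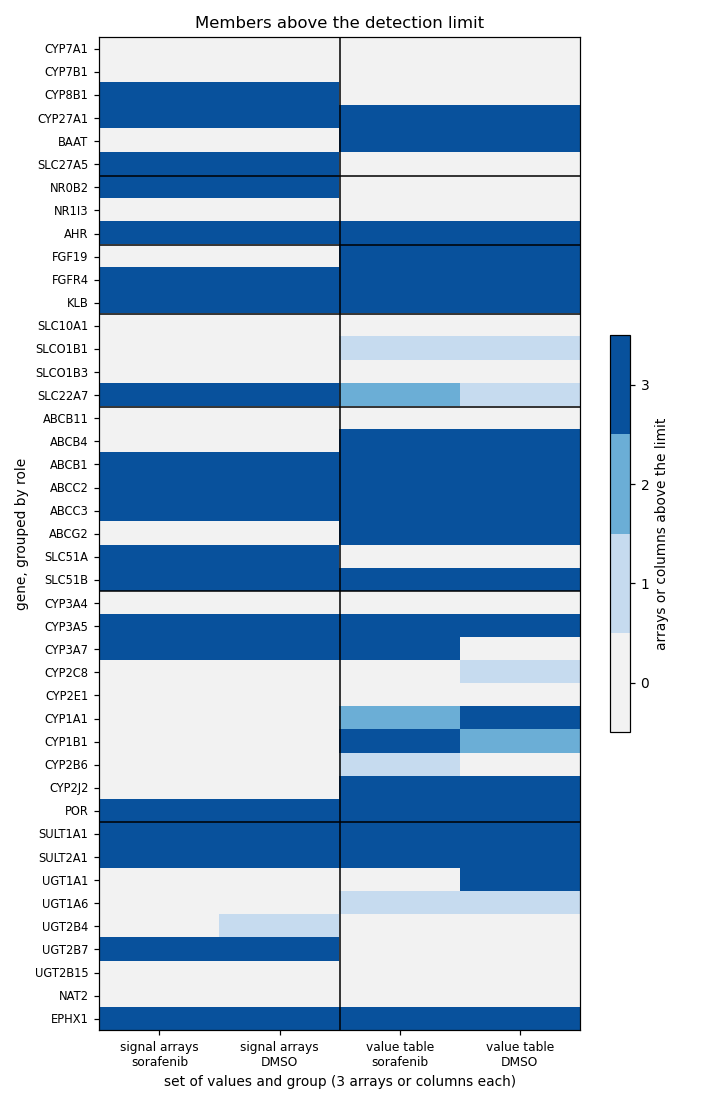
Number of arrays or columns, from 0 to 3 (colour), on which each of the 43 genes was above the detection limit, by set and group, with genes down the page grouped by role and sorafenib left of DMSO. The hepatocyte genes CYP7A1, SLC10A1, ABCB11 and CYP3A4 are at 0 throughout, and UGT1A1 is above the limit on 3 DMSO columns and on 0 sorafenib columns of the value table.

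With limma and Benjamini-Hochberg adjustment over all kept probes, 10 of the 20 kept members rose with sorafenib on the signal arrays, 4 fell and 6 did not pass the test. The median log2 difference, sorafenib minus DMSO, was 0.37 over these 20 and near 0 (-0.00103) over all 10523 genes tested. Of all genes tested on the signal arrays, 31% were called, 16.8% as higher and 14.2% as lower. The value table gave 5 rises and 3 falls among 23 kept members, 15 did not pass, and the median was -0.08, against 0.00767 over all 10595 genes. Of these 8 calls, CYP3A7 and UGT1A1 were kept through the columns of 1 group alone and so had to differ, which leaves 4 rises and 2 falls among 21 other members. Of all genes of the value table, 19.5% were called, 11.3% as higher and 8.17% as lower. A total of 19 members were called in at least 1 set, and 3 of the 15 kept in both sets were called in both: CYP27A1 and SULT2A1 rose and SLC51B fell in each. The share of all genes called in both sets, or in at least 1, is not given here. These counts therefore describe the members alone. With the replicate number as a block, 12 members rose and 5 fell on the signal arrays, where that fit called 44% of all genes, 22.4% as higher and 21.5% as lower. The block gave 7 rises and 7 falls in the value table, where it called 34.6% of all genes, 19.1% as higher and 15.5% as lower.

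**Figure D2:**
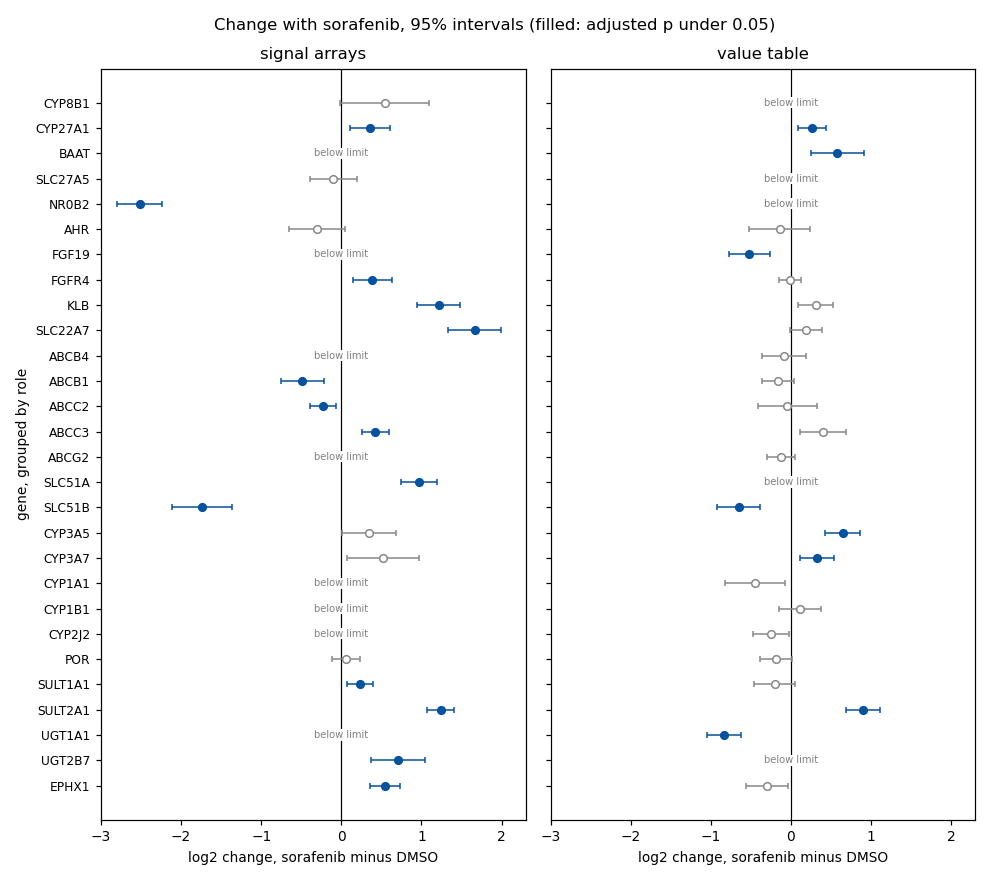
Log2 change (sorafenib minus DMSO, x axis) of each member kept in at least 1 set, with its 95% interval, on the signal arrays (left) and in the value table (right), grouped by role. Filled points passed an adjusted p of 0.05. NR0B2 stands at -2.52 and SLC22A7 at 1.67 on the signal arrays, and the points of SLC51B lie left of 0 and those of SULT2A1 right of 0 in both sets.

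Among the bile acid synthesis enzymes, CYP27A1 rose in both sets and BAAT rose in the set where it was measured. CYP27A1, the mitochondrial sterol hydroxylase that opens the alternative route, had log2 levels of 13.10, 13.23 and 13.46 with sorafenib on the signal arrays, against 12.75, 12.84 and 13.11 with DMSO. The lowest sorafenib array lay just under the highest DMSO array, so the groups overlapped. The difference was 0.36 on the log2 scale (SE 0.11, 1.28-fold higher, adjusted p = 0.0363). Its value-table levels were 10.66, 10.59 and 10.70 with sorafenib and 10.34, 10.31 and 10.51 with DMSO. These groups did not overlap, and the difference was 0.26 (SE 0.08, 1.20-fold higher, adjusted p = 0.0467). Leaving out single samples ended both calls: on the signal arrays the call was lost without sorafenib 2 (adjusted p = 0.0848), sorafenib 3 (0.114), DMSO 1 (0.0946) or DMSO 2 (0.118), and in the value table without any of the 3 sorafenib columns, DMSO 1 or DMSO 2 (0.0798 to 0.128). BAAT, which joins bile acids to glycine or taurine, had value-table levels of 8.80, 8.62 and 9.17 with sorafenib and 8.27, 8.10 and 8.48 with DMSO. All sorafenib columns were above all DMSO columns, by 0.58 on the log2 scale (SE 0.15, adjusted p = 0.0265). This call was lost without sorafenib 1 (0.0678), sorafenib 3 (0.0569), DMSO 1 (0.0747) or DMSO 2 (0.0810).

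CYP8B1, the sterol 12-alpha-hydroxylase that sets the share of cholic acid, had signal-array levels of 7.10, 7.06 and 7.56 with sorafenib, against 6.22, 6.66 and 7.21 with DMSO. Same-numbered samples of its groups were high together, with number 3 the highest of each. The difference of 0.54 (95% interval -0.01 to 1.10) did not pass without a block (adjusted p = 0.135) and passed with the replicate number as a block (adjusted p = 0.0154) and without DMSO 3 (0.0210). SLC27A5, the ligase that activates bile acids for conjugation, had overlapping groups and a log2 difference of -0.10 (95% interval -0.40 to 0.19, adjusted p = 0.616).

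The repressor NR0B2 (SHP), a nuclear receptor that lacks a DNA-binding domain and shuts down bile acid synthesis genes, had the lowest log2 difference among the 20 members kept on the signal arrays. Its log2 levels were 7.80, 7.71 and 7.34 with sorafenib and 10.08, 10.15 and 10.18 with DMSO. The means were 7.62 ± 0.24 with sorafenib and 10.14 ± 0.05 with DMSO (SD, n = 3 each), with every sorafenib array well under every DMSO array and still above the detection limit. This was a difference of -2.52 on the log2 scale (SE 0.12, 95% interval -2.80 to -2.24), or 5.73-fold lower (adjusted p = 2.65e-06 by limma). In the value table NR0B2 was above the limit on no column, so no size is given there. AHR, the receptor for dioxin-like compounds, had 2 kept probes in each set. Its brighter probe had signal-array levels of 11.75, 11.52 and 11.78 with sorafenib and 12.41, 11.84 and 11.72 with DMSO, which overlapped. The difference of -0.31 (95% interval -0.66 to 0.04) did not pass (adjusted p = 0.179) and was called lower with the replicate block (adjusted p = 0.0352) and with its probes averaged (0.0412). The second probe gave -0.47 (adjusted p = 0.0701), and AHR in the value table gave -0.14 (adjusted p = 0.620).

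The receptors of FGF19 rose on the signal arrays, and the hormone itself fell in the value table. KLB, the coreceptor that lets FGFR4 bind FGF19, had signal-array levels of 11.45, 11.15 and 11.49 with sorafenib and 10.05, 10.01 and 10.39 with DMSO. The groups lay far apart relative to their spread, and KLB was 2.32-fold higher with sorafenib (log2 difference 1.22, SE 0.12, adjusted p = 0.000139). Value-table levels of KLB were 11.39, 11.05 and 11.30 with sorafenib and 11.07, 10.87 and 10.88 with DMSO, overlapping by a small margin. That difference of 0.31 (95% interval 0.09 to 0.53) did not pass (adjusted p = 0.0597), and passed with the replicate block (adjusted p = 0.00193) and without sorafenib 2 (0.0312).

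FGFR4, the receptor tyrosine kinase of the axis, had signal-array levels of 12.93, 13.01 and 13.28 with sorafenib and 12.61, 12.55 and 12.89 with DMSO. The lowest sorafenib array was just above the highest DMSO array, and the difference was 0.39 (SE 0.11, 1.31-fold higher, adjusted p = 0.0264). A second probe gave 0.42 (adjusted p = 0.013). The call of the brighter probe was lost without sorafenib 2 (0.0577), sorafenib 3 (0.0809), DMSO 1 (0.0615) or DMSO 2 (0.105). The brighter FGFR4 probe in the value table had a difference of -0.01 (95% interval -0.15 to 0.13, adjusted p = 0.923). Its second probe there had 10.10, 10.22 and 10.04 with sorafenib and 10.26, 10.27 and 10.34 with DMSO. All sorafenib columns of that probe were lower, by -0.17, which did not pass (adjusted p = 0.159). On the signal arrays the same probe had all sorafenib arrays above all DMSO arrays. FGF19 was not detected on any signal array. Its value-table levels were 8.90, 8.68 and 8.56 with sorafenib and 9.42, 9.15 and 9.12 with DMSO, with no overlap. FGF19 was 1.43-fold lower with sorafenib there (log2 difference -0.52, SE 0.12, adjusted p = 0.0164), a call lost without sorafenib 2 (0.0570) or DMSO 1 (0.0530).

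Of the uptake carriers, SLC22A7 was the only one kept in either set. SLC22A7 (OAT2) takes up organic anions into hepatocytes. Its brighter probe had signal-array levels of 10.17, 10.04 and 10.46 with sorafenib and 8.29, 8.57 and 8.82 with DMSO. Every sorafenib array was above every DMSO array, and the level was 3.17-fold higher (log2 difference 1.67, SE 0.15, adjusted p = 7.16e-05). The second kept probe had 7.86, 8.10 and 8.36 with sorafenib and 6.21, 6.29 and 6.31 with DMSO, the last 3 close to the detection limit, and rose by 1.84 (adjusted p = 5.36e-05). Value-table levels of SLC22A7 were 7.56, 7.35 and 7.48 with sorafenib and 7.20, 7.22 and 7.40 with DMSO, above the limit on 2 sorafenib columns and 1 DMSO column. The difference there was 0.19 (adjusted p = 0.186), too close to the limit for a size.

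Among the efflux transporters, the partner subunits of the basolateral bile acid exporter differed in opposite directions on the signal arrays. SLC51A (OST-alpha) had levels of 8.86, 8.81 and 8.73 with sorafenib and 7.76, 7.88 and 7.84 with DMSO. All sorafenib arrays were above all DMSO arrays, by 0.97 on the log2 scale (SE 0.10, 1.96-fold higher, adjusted p = 0.000164). SLC51B (OST-beta), the partner that SLC51A needs to reach the membrane, had 7.42, 7.41 and 7.87 with sorafenib and 9.11, 9.18 and 9.62 with DMSO. Here all sorafenib arrays were below all DMSO arrays, by -1.74 (SE 0.17, 3.33-fold lower, adjusted p = 0.000117). In the value table SLC51A was above the limit on no column. SLC51B fell there too, with levels of 9.94, 9.94 and 9.54 with sorafenib and 10.59, 10.40 and 10.39 with DMSO, again without overlap. That was 1.57-fold lower (log2 difference -0.65, SE 0.12, adjusted p = 0.00734).

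Of the ATP-driven exporters on the signal arrays, ABCC3 rose and ABCB1 and ABCC2 fell. ABCC3 (MRP3), which moves conjugates across the basolateral membrane into blood, had 12.86, 12.82 and 13.07 with sorafenib and 12.57, 12.46 and 12.45 with DMSO. The groups were apart, by 1.34-fold (SE of the log2 difference 0.08, adjusted p = 0.00332). Value-table levels of ABCC3 were 11.27, 11.37 and 10.92 with sorafenib and 10.69, 11.00 and 10.66 with DMSO and overlapped. The difference of 0.40 (95% interval 0.11 to 0.69) did not pass (adjusted p = 0.0622), and passed with the replicate block (adjusted p = 0.00043), without sorafenib 3 (0.0182) or without DMSO 2 (0.0374).

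ABCB1 (P-glycoprotein), a canalicular drug pump, had signal-array levels of 8.25, 8.30 and 8.45 with sorafenib and 8.67, 8.75 and 9.04 with DMSO. The groups did not overlap, and ABCB1 was 1.40-fold lower with sorafenib (log2 difference -0.49, SE 0.12, adjusted p = 0.0161), a call lost without sorafenib 1 (0.0543) or sorafenib 2 (0.0580). ABCC2 (MRP2), the canalicular exporter of conjugates such as bilirubin glucuronide, had 12.48, 12.58 and 12.74 with sorafenib and 12.82, 12.80 and 12.87 with DMSO. It was 1.18-fold lower without overlap (log2 difference -0.23, SE 0.07, adjusted p = 0.0391), and this call was lost without sorafenib 1 (0.123), sorafenib 2 (0.113), DMSO 1 (0.0708), DMSO 2 (0.0848) or DMSO 3 (0.0851). Neither passed in the value table, where the log2 difference was -0.16 for ABCB1 (95% interval -0.37 to 0.04, adjusted p = 0.262) and -0.04 for ABCC2 (-0.41 to 0.33, adjusted p = 0.892). The phospholipid floppase ABCB4 (MDR3) and the drug pump ABCG2 (BCRP), measured in the value table only, had differences of -0.08 (95% interval -0.35 to 0.19, adjusted p = 0.700) and -0.13 (-0.30 to 0.05, adjusted p = 0.293).

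**Figure D3:**
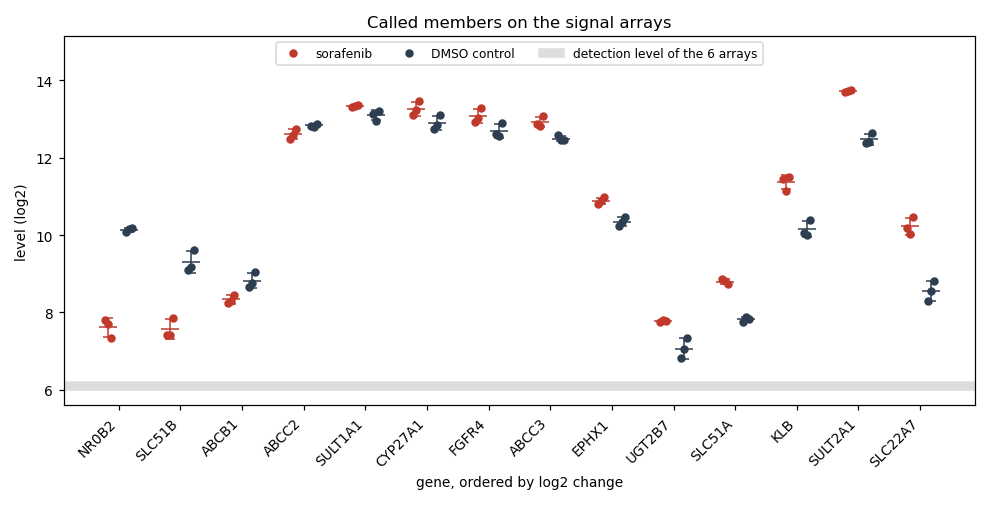
Log2 levels of the 14 members called on the signal arrays, ordered by log2 change along the x axis. Points are single arrays, bars the mean and SD of 3 arrays, sorafenib left of DMSO, and the grey band the detection level of the 6 arrays; the points of NR0B2 lie at 7.34 to 7.80 with sorafenib and at 10.08 to 10.18 with DMSO.

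CYP3A4, the main CYP of adult liver and the enzyme that oxidises sorafenib, was above the limit nowhere, while its relatives CYP3A5 and CYP3A7 were measured. CYP3A genes are close in sequence and probe sequences were not used here, so signal shared among them cannot be told apart. CYP3A5, a relative with overlapping substrates, had value-table levels of 9.98, 9.72 and 9.91 with sorafenib and 9.33, 9.27 and 9.08 with DMSO. The groups did not overlap, and CYP3A5 was 1.56-fold higher with sorafenib (log2 difference 0.65, SE 0.10, adjusted p = 0.00383). Signal-array levels of CYP3A5 were 7.74, 7.95 and 7.93 with sorafenib and 7.63, 7.71 and 7.23 with DMSO, which did not overlap either, and the difference of 0.35 (95% interval 0.01 to 0.68) did not pass (adjusted p = 0.117).

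CYP3A7, the form of fetal liver, had value-table levels of 7.60, 7.60 and 7.89 with sorafenib and 7.37, 7.39 and 7.34 with DMSO, above the limit on 3 sorafenib columns and 0 DMSO columns. It passed the filter through its sorafenib columns alone and so had to differ. Its level was at least 1.23-fold higher with sorafenib (adjusted p = 0.0397), and the call was lost without any 1 of the 6 columns (0.0597 to 0.0974). CYP3A7 on the signal arrays had 7.18, 7.26 and 7.49 with sorafenib and 6.40, 7.18 and 6.77 with DMSO. These met at their edges, and the difference of 0.53 (95% interval 0.07 to 0.98) passed only with the replicate block (adjusted p = 0.0242, against 0.0822 without) and without DMSO 2 (0.0342), among the settings run.

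The other CYPs were kept in the value table only. CYP1A1, the AHR target that oxidises polycyclic hydrocarbons, had 7.31, 7.43 and 7.90 with sorafenib and 7.94, 7.78 and 8.27 with DMSO, which overlapped. The difference of -0.45 (95% interval -0.82 to -0.07) did not pass (adjusted p = 0.0949). It was called lower with the replicate block (adjusted p = 0.00104) and without sorafenib 3 (0.0233). CYP2J2, an arachidonic acid epoxygenase, had 9.97, 9.82 and 9.72 with sorafenib and 10.16, 10.17 and 9.91 with DMSO, a difference of -0.24 (95% interval -0.47 to -0.02, adjusted p = 0.124) that was called with the replicate block (adjusted p = 0.0137). CYP1B1, another AHR target, was above the limit on 3 sorafenib columns and 2 DMSO columns and differed by 0.11 (adjusted p = 0.543), close to the limit. POR, which hands electrons to all microsomal CYPs, differed by 0.06 on the signal arrays (95% interval -0.11 to 0.23, adjusted p = 0.626) and by -0.19 in the value table (95% interval -0.39 to 0.02, adjusted p = 0.188).

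Of the conjugation and hydrolysis enzymes, SULT2A1 rose in both sets. SULT2A1, the sulfotransferase of bile acids and DHEA, had signal-array levels of 13.69, 13.71 and 13.75 with sorafenib and 12.38, 12.41 and 12.64 with DMSO. The means were 13.72 ± 0.03 with sorafenib and 12.47 ± 0.14 with DMSO (SD, n = 3 each), so the groups lay several SDs apart. The log2 difference was 1.24 (SE 0.07, 95% interval 1.08 to 1.41, adjusted p = 6.67e-06). Its value-table levels were 12.37, 12.31 and 12.60 with sorafenib and 11.62, 11.38 and 11.57 with DMSO, again with all sorafenib columns on top. There SULT2A1 was 1.87-fold higher (log2 difference 0.90, SE 0.09, adjusted p = 0.000879).

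The glucuronosyltransferases were mostly under the limit. UGT2B7, which glucuronidates morphine and bile acids, had signal-array levels of 7.75, 7.81 and 7.78 with sorafenib and 6.82, 7.05 and 7.34 with DMSO. It was 1.64-fold higher without overlap (log2 difference 0.71, SE 0.15, adjusted p = 0.00773), and in the value table it was above the limit on no column. UGT1A1, the bilirubin-conjugating enzyme, was below the limit on all signal arrays. Its value-table levels were 7.15, 7.11 and 7.06 with sorafenib and 8.12, 7.80 and 7.89 with DMSO, above the limit on 0 sorafenib columns and 3 DMSO columns. UGT1A1 was at least 1.45-fold lower with sorafenib (adjusted p = 0.00125), and having passed the filter through its DMSO columns alone it had to differ. Members of the UGT1A and UGT2B families share long stretches of sequence, so their probes may read relatives as well.

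EPHX1 and SULT1A1 had log2 differences of opposite sign in the sets. EPHX1, the microsomal epoxide hydrolase, had signal-array levels of 10.81, 10.87 and 10.97 with sorafenib and 10.22, 10.34 and 10.46 with DMSO. All sorafenib arrays were higher, by 1.46-fold (log2 difference 0.54, SE 0.08, adjusted p = 0.00154). Value-table levels of EPHX1 were 9.34, 9.06 and 9.41 with sorafenib and 9.73, 9.42 and 9.57 with DMSO. All sorafenib columns were lower there, by -0.30 (95% interval -0.56 to -0.04), which did not pass (adjusted p = 0.104) and was called with the replicate block (adjusted p = 0.00622).

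SULT1A1, the main phenol sulfotransferase of liver, had 2 kept probes that lay on opposite sides of 0 within each set, and it has near-identical relatives that a probe could also read. The brighter probe had signal-array levels of 13.31, 13.32 and 13.36 with sorafenib and 13.13, 12.95 and 13.21 with DMSO, a 1.18-fold rise without overlap (log2 difference 0.23, SE 0.07, adjusted p = 0.0363). The second had 12.72, 12.73 and 12.80 with sorafenib and 13.00, 12.81 and 12.99 with DMSO, a difference of -0.18 (adjusted p = 0.0736) that was called lower with the replicate block (0.024). With the probes averaged the difference was 0.03 (adjusted p = 0.807), and the brighter probe's call was lost without any 1 of the sorafenib arrays (0.0744 to 0.0950), DMSO 1 (0.0521) or DMSO 2 (0.124). In the value table the brighter probe gave -0.20 (adjusted p = 0.243; called with the replicate block, 0.0205, and without DMSO 3, 0.0423) and the second 0.11 (adjusted p = 0.599).

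**Figure D4:**
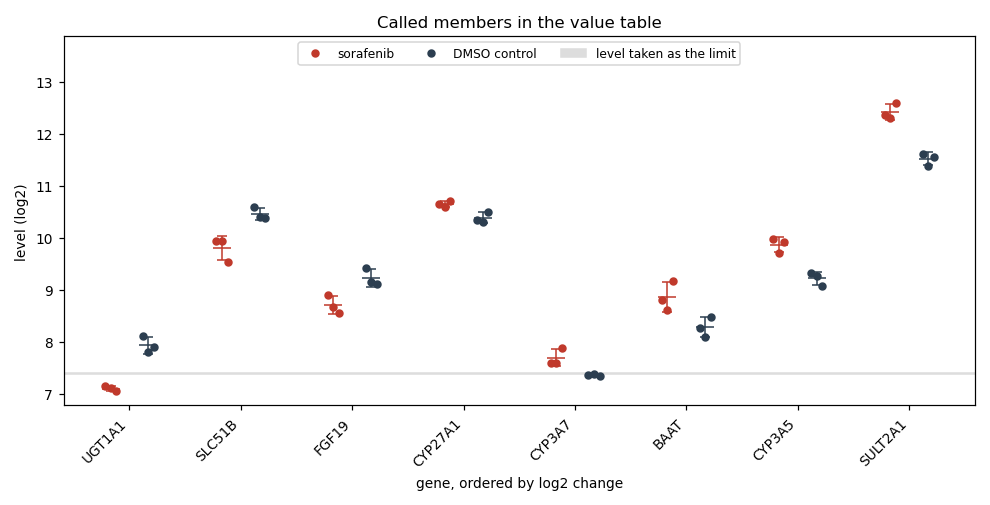
Log2 levels of the 8 members called in the value table, ordered by log2 change along the x axis. Points are single columns, bars the mean and SD of 3 columns, sorafenib left of DMSO, and the grey line the level taken as the limit; UGT1A1 has its 3 sorafenib points under the line, and SULT2A1 lies at 12.31 to 12.60 with sorafenib and at 11.38 to 11.62 with DMSO.

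On the signal arrays 16.8% of all genes were called higher and 14.2% lower. Counted by role there, all 4 kept conjugation and hydrolysis enzymes rose, SULT1A1 by its brighter probe only. Both kept FGF19 receptors, the 1 kept uptake carrier and 1 of 3 synthesis enzymes also rose. Of 5 efflux transporters 2 rose and 3 fell, 1 of 2 receptors and regulators fell, and none of 3 CYP and POR genes passed the test. For the value table, the shares of all genes called were 11.3% higher and 8.17% lower. That set had 2 rises among 2 synthesis enzymes and 2 among 6 CYP and POR genes. Falls there were 1 of 3 genes of the FGF19 axis and 1 of 6 efflux transporters. Among its 4 conjugation and hydrolysis enzymes, 1 rose and 1 fell. Without CYP3A7 and UGT1A1, whose direction the filter fixed, that is 1 rise among 5 CYP and POR genes, and 1 rise and 0 falls among 3 conjugation and hydrolysis enzymes. These are counts of few genes, and no role was tested against another.

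Other genes of the same pathways, listed in 5 groups, gave the setting. Of 110 such genes, 95 had a named probe. On the signal arrays 59 were kept, of which 28 rose, 6 fell and 25 did not pass, with a median log2 difference of 0.25, where 16.8% of all genes were called higher and 14.2% lower. Of 61 kept in the value table, 13 rose, 3 fell and 45 did not pass, with a median of 0.10, where 11.3% of all genes were called higher and 8.17% lower. These counts, and those by group below, hold 1 phase 1 gene in each set that was kept through 1 group alone. On the signal arrays this was CYP3A43, whose rise the filter favoured. In the value table it was CYP2S1, whose fall the filter fixed. Without these genes, 27 of 58 rose and 6 fell on the signal arrays, and 13 of 60 rose and 2 fell in the value table. The phase 1 genes then gave 8 rises and 2 falls among 17 on the signal arrays, and 5 rises and 0 falls among 17 in the value table. CYP2S1 is named for this after its values were seen. By group on the signal arrays, 5 of 9 other synthesis genes rose and 1 fell, 4 of 9 other receptors and cofactors rose and 2 fell, 9 of 18 other phase 1 genes rose and 2 fell, 4 of 11 other conjugation genes rose and 0 fell, and 6 of 12 other transporters rose and 1 fell. The value table gave 0 of 10 synthesis genes and 0 of 8 receptors and cofactors as called, 5 rises and 1 fall among 18 phase 1 genes, 3 and 2 among 12 conjugation genes, and 5 and 0 among 13 transporters. With the replicate block the phase 1 genes of the value table gave 11 rises and 3 falls, and its receptors and cofactors 2 rises, in a fit that called 34.6% of all its genes.

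Of these other genes, 4 that were detected in both groups were called with a log2 difference of at least 1 in size, all on the signal arrays. SLCO2B1, an organic anion carrier of the OATP family, had 11.59, 11.68 and 11.66 with sorafenib and 10.44, 10.41 and 10.43 with DMSO, with arrays of a group within a narrow band. It was 2.33-fold higher (log2 difference 1.22, SE 0.06, adjusted p = 3.47e-06), and its value-table difference was 0.12 (adjusted p = 0.257). SLCO4C1, another OATP carrier, had 7.35, 7.42 and 7.95 with sorafenib and 6.17, 6.27 and 6.73 with DMSO. The groups did not overlap, the level was 2.27-fold higher (log2 difference 1.18, SE 0.21, adjusted p = 0.00313), and SLCO4C1 also rose in the value table, by 0.81 (adjusted p = 0.0114). SLCO4A1, also an OATP carrier, had 7.77, 7.77 and 7.94 with sorafenib and 8.92, 8.89 and 8.96 with DMSO and was 2.14-fold lower (log2 difference -1.10, SE 0.10, adjusted p = 8.78e-05). It was below the limit in the value table. CYP4F12, a fatty acid hydroxylase, had 9.99, 10.13 and 10.61 with sorafenib and 9.05, 9.17 and 9.47 with DMSO. It was 2.02-fold higher without overlap (SE of the log2 difference 0.16, adjusted p = 0.00187), and its value-table difference was -0.07 (adjusted p = 0.852). CYP3A43, a minor CYP3A form, was also called, with a measured difference past 1 but a smaller bound. It had 6.35, 6.58 and 7.26 with sorafenib and 4.84, 5.09 and 5.17 with DMSO. It was detected with sorafenib and on no DMSO array, so it passed the filter through the sorafenib arrays alone, which favours a rise. Its level was at least 1.59-fold higher (adjusted p = 0.0013).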

How the data were processed

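RNA of 3 sorafenib and 3 DMSO samples was measured on an Illumina beadchip, with biotin-labelled cRNA per the labels' protocols. The authors deposited probe signals as linear intensity, not normalized between arrays, and a detection p-value beside each, per the file headers. The deposited value table was taken as log2 from its values. Its 6 columns had the same median (7.099) and the same number of probes above 7.40 (16980), as quantile normalization gives. Its background treatment is unknown, and the sources used here name neither scanner software nor normalization tool.

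From the signals, neqc (offset 16) gave background-corrected, quantile-normalized log2 levels. Probes with detection p under 0.01 on at least 3 of 6 arrays (17115), or above 7.40 on at least 3 columns of the value table (17122), were kept. That level was borrowed from the signal arrays, as the mean detection threshold in their quantile-normalized signals without background correction. Within each set, limma 3.58.1 in R 4.3.3 (lmFit, eBayes with trend, two-sided, group only) was run with Benjamini-Hochberg adjustment across kept probes and a threshold of 0.05; intervals are limma's at 95%. This called 2419 probes higher and 2169 lower on the signal arrays, and 1555 and 1483 in the value table. The kept probe with the highest mean stood for its gene. A gene above the limit on no array of a group has its fold as a bound, taken against the limit. The fit was tested on simulated data.

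Symbols came from the platform's annotation (30113 probes with 1 symbol, 8 with several, 17202 with none). Members and lists were chosen with earlier results of these data known. All 47 members were accounted for by detection, values per array were given for members called in either set, and other pathway genes were named where called with a log2 difference of at least 1 in size. Same-numbered samples deviated together (r = 0.321 to 0.384 over the 3 numbers on the signal arrays, 0.317 to 0.666 in the value table). Differently numbered samples had r = -0.353 to 0.033 on the signal arrays. In the value table they had -0.518 to 0.294, close to the lowest same-numbered value there. Values with the replicate number, taken from the titles, as a block are therefore given where they change a call. Alternatives covered background correction, normalization, filter, trend, array weights, probe choice and leaving out each array. No 2 arrays held identical values. The number of arrays limits the precision.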

Additional observations from a re-analysis of the deposited data

Results flagged for a closer look

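EPHX1, the microsomal epoxide hydrolase, had every sorafenib array above every DMSO array on the signal arrays (log2 difference 0.54) and every sorafenib column below every DMSO column in the value table (-0.30). The difference between the sets was not tested, since they were normalized separately.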

How the results depend on the processing

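Of the 14 members called on the signal arrays, 9 were called under every alternative run (NR0B2, KLB, SLC22A7, ABCC3, SLC51A, SLC51B, SULT2A1, UGT2B7 and EPHX1), as were SLC51B, CYP3A5 and SULT2A1 of the 8 called in the value table. UGT1A1 was called in the 11 alternatives that tested it, and the filter for all 6 columns left it out. Having been kept through its DMSO columns alone, it had to differ, so these calls do not speak for its stability. No called member changed direction. Some alternatives called 3 of the 6 uncalled members on the signal arrays and 6 of the 15 in the value table. The remaining calls, with differences mostly under 0.6 on the log2 scale, depended on single samples, as given with each gene. On the signal arrays, median scaling in place of quantile normalization ended the calls of CYP27A1 (adjusted p = 0.0740), FGFR4 (0.0642), ABCC2 (0.187) and SULT1A1 (0.354), as did no trend (0.0967, 0.0774, 0.105 and 0.105 in that order), and no filter ended those of ABCC2 (0.0666) and SULT1A1 (0.0578). In the value table no filter ended the calls of CYP27A1 (0.118) and CYP3A7 (0.0561) and left 3 rises, no trend ended that of CYP27A1 (0.0531), and array weights added ABCC3 (0.0228) and CYP1A1 (0.0319). Median scaling gave 1370 probes higher and 1257 lower on the signal arrays. The replicate block gave 3360 higher and 3387 lower there, and 2721 and 2735 in the value table, with 12 members higher and 5 lower on the signal arrays and 7 and 7 in the value table; it called 44% and 34.6% of all genes in these sets. Leaving out 1 array gave 1687 to 2334 probes higher, 1262 to 2009 lower, 7 to 11 members higher and 2 to 4 lower on the signal arrays. Leaving out 1 column gave 811 to 1192 probes higher, 749 to 1302 lower, 2 to 4 members higher and 2 to 4 lower in the value table. Among these alternatives, shares over all genes are given for the replicate block only. The other member counts here therefore describe these members alone. The causes were not tested. Values near the detection limit understate differences, and 3 arrays a group limit the precision.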

Other observations

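Promoter windows of the same length were available for 34 of the 47 members, as 46 windows. At least 1 of the core motifs marked above lay in 29 of the 46 (63%), against 29.1% of all 35116 windows. Counted by gene, 26 of the 34 members had such a window, against 9216 of 27305 genes (33.8%). These shares describe the windows and were not tested.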
